A study of Mus musculus with 16 samples.

Results

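Brain RNA from mice labelled Lcn2-/- was compared with brain RNA from wild type mice, all 8 h after an injection of lipopolysaccharide (LPS), with 4 libraries on each side. The comparison was made across every gene with a log2 RPKM of at least -1 (0.5 RPKM) in at least 3 of these 8 libraries, a rule that kept 16742 of the 33289 genes in the deposited table (50.3%). RPKM is a read count scaled to transcript length and to the total reads of the library. The series holds 16 libraries, 4 for each combination of genotype label and injection, and the 8 from saline-injected mice served as the background for the same genotype difference without LPS. All mice were C57BL/6J and 3 to 4 months old, and each sample was a PBS-perfused hemi-brain, so by the labels the groups differ only in genotype and injection. The 4 groups are therefore wild type with saline, Lcn2-/- with saline, wild type with LPS and Lcn2-/- with LPS. The dose and route of LPS, the way the Lcn2-/- line was made, and whether wild type mice were littermates are not stated in the labels used here. Each value comes from a whole hemi-brain: fewer cells of a type and less RNA per cell cannot be told apart.

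LPS is a lipid-linked sugar that coats Gram-negative bacteria. It is bound by CD14 and the receptor TLR4, which signal through adaptor proteins to the transcription factor NF-κB and, by a separate branch, to interferon regulatory factors and type I interferon. In the brain after an injection at the body's periphery, endothelial cells, perivascular cells, microglia and astrocytes respond with chemokines, adhesion molecules and interferon-induced genes. Lipocalin-2, the product of Lcn2, is a secreted protein that binds bacterial siderophores, the small molecules with which bacteria take up iron, and it is one of the strongly induced proteins of acute inflammation, made by astrocytes and endothelial cells in the brain. The title of the series poses the question of what lipocalin-2 does for the brain in inflammatory conditions.

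The deposited values are log2 RPKM after a normalization that gave all libraries nearly the same upper distribution, with a maximum of 1385 RPKM in every library, and many highly expressed genes therefore carry the same value in several libraries. Read counts were not part of the table, so library depth is unknown and values carry no counting interval. In a principal component analysis of the 8 LPS libraries, component 1 held 50.77% of the variance and placed the wild type libraries between -21.28 and -13.26 and the labelled Lcn2-/- libraries between 12.11 and 24.01. Component 2 (11.5%) set labelled Lcn2-/- replicate 1 apart at 18.13, against -10.57 to 5.47 for the other 7. Among the saline libraries, labelled Lcn2-/- replicate 4 stood apart at low levels. It held 17112 genes at 0.5 RPKM or more, against 16372 to 16497 in the other 15 libraries of the series, and its median log2 RPKM was -0.82, against -1.14 to -1.07. Its label ends in a letter that the other labels lack, and what the letter marks is not stated in the labels used here. Summed levels of neuronal and astrocyte markers were near equal. The sum of 12 neuronal genes lay at 1155 to 1174 RPKM in wild type against 1126 to 1159 RPKM in labelled Lcn2-/- libraries. That of 10 astrocyte genes lay at 693 to 740.3 and 709.9 to 735 RPKM. Because the normalization brought the upper distributions of the libraries together, these sums of abundant genes do not measure cell content.

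Lcn2 itself (chr2:32384633-32388252, mm10, minus strand) had transcript in every library of both genotypes. After LPS its level was 71.5, 67.8, 66.7 and 82.7 RPKM in wild type replicates 1 to 4 and 40.1, 34.1, 38.3 and 37.2 RPKM in labelled Lcn2-/- replicates 1 to 4. The groups did not overlap, and the labelled Lcn2-/- libraries held 52.0% of the wild type geometric mean, a difference of -0.94 ± 0.07 on the log2 scale (± SE, n = 4 against 4; limma with Benjamini-Hochberg adjustment over all genes tested, adjusted p = 6.2e-05). When all 16 libraries shared one estimate of the spread, the adjusted p was 0.0498. After saline the levels were 0.0650, 0.0741, 0.204 and 0.137 RPKM in wild type against 0.132, 0.204, 0.351 and 0.247 RPKM in labelled libraries. The saline groups overlapped, and the difference of 1.03 did not pass (limma adjusted p = 0.74). The difference after LPS was below that after saline (interaction -1.97, limma adjusted p = 0.016; -1.92 and 0.014 without labelled saline replicate 4). This measure includes the saline difference of 1.03, which comes from levels under the filter's minimum of 0.5 RPKM in every saline library. The targeted gene thus goes against its label in all 4 libraries, and the group is called "labelled Lcn2-/-" throughout. The table holds 1 value per gene, so a transcript that lacks deleted exons would still be counted. Slc22a17, whose product has been proposed as a receptor for lipocalin-2, lay at 169 to 184 RPKM in wild type against 171 to 177 RPKM in labelled Lcn2-/- libraries and did not pass (difference -0.01 ± 0.03, limma adjusted p = 0.9).

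Across all genes, 4408 of 16742 were called different between the labels after LPS (26.3%; limma, adjusted p under 0.05), 2105 higher (12.6%) and 2303 lower (13.8%) in the labelled Lcn2-/- libraries. The 2 directions were near balance, and the median difference over all genes tested was -0.01 on the log2 scale. Most differences were small: 3831 of the 4408 (86.91%) were under 1.5-fold. Those of at least 2-fold leaned one way, with 146 genes higher (0.872%) and 36 lower (0.215%). The 2-fold counts depend on the scale: on log2(RPKM + 1) they were 46 and 2. The libraries of the 2 labels did not overlap for 4776 genes (28.5%), 13.6% higher and 14.9% lower in labelled libraries. After saline, the same fit over the same genes called 3 genes (0.0179%), 2 higher (0.0119%) and 1 at least 2-fold lower (0.00597%), and 1128 had an unadjusted p under 0.05, against 6731 after LPS. The 2 comparisons share no library. No wild type LPS library reached the filter's minimum for 95 of the tested genes and no labelled one for 83, and 109 of these 178 were called; such genes had to differ, so their calls are given as a description. Of the genes named, Cxcl11, Acod1, Cd40, Il1a, Il15 and Stat5a are of the first kind and S100a5, Sp8, Zfp626 and F13a1 of the second. In the fit of all 16 libraries, the genotype difference after LPS itself differed from that after saline for 1568 genes (9.37%), 700 above (4.18%) and 868 below (5.18%). Every list count given below has to be read beside these shares of all genes, 12.6% higher and 13.8% lower after LPS. For counts of the difference between injections the shares are 4.18% and 5.18%. With all 16 libraries sharing the spread, the genes called after LPS fell to 1224 higher and 1479 lower. Leaving out labelled Lcn2-/- replicate 3 gave 1364 and 1449. The counts of the difference between injections moved more: 377 above and 407 below without wild type LPS replicate 1, 456 and 560 without replicate 2, 474 and 542 without replicate 3, 427 and 447 without labelled LPS replicate 2, and 377 and 433 without its replicate 3. Among saline libraries they were 383 and 404 without wild type replicate 3, 405 and 509 without wild type replicate 4, and 1066 and 1216 without labelled replicate 4. The saline calls, 2 higher and 1 lower, became 4 and 1 without labelled saline replicate 4 and 2 and 2 without wild type saline replicate 3.

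**Figure D1:**
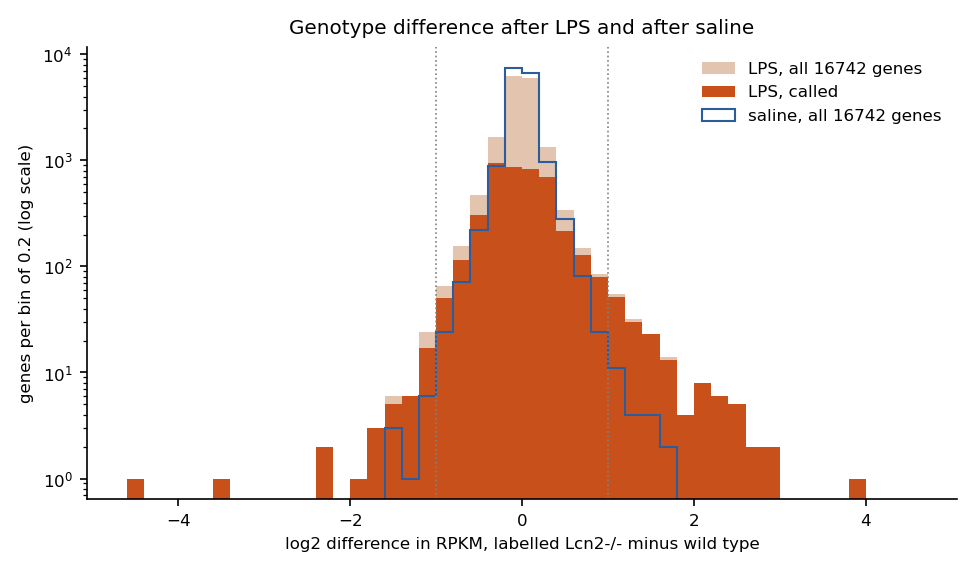
Number of genes tested (vertical axis, log scale) by the log2 difference in RPKM, labelled Lcn2-/- minus wild type, in bins of equal width (horizontal axis), for the 8 LPS libraries (filled) and the 8 saline libraries (line). Called genes after LPS are shown in a darker fill; 146 of them lie at or above 1 and 36 at or below -1.

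The largest increase among the listed genes was in chemokines, the secreted proteins that draw leukocytes along a gradient. Of 18 chemokine genes tested, 15 were called higher and 1 lower in the labelled Lcn2-/- libraries, where 12.6% and 13.8% of all genes were; the median difference was 1.50 on the log2 scale, and 0.11 after saline (-0.06 without labelled saline replicate 4). With all 16 libraries sharing the spread, 10 were called higher. The ligands of the receptor CXCR3, which are induced by interferons and attract T cells, led. Cxcl10 lay at 12.3, 11.9, 8.07 and 25.4 RPKM in wild type against 101, 104, 127 and 77.6 RPKM in labelled Lcn2-/- libraries. Every labelled library lay far above the highest wild type one, replicate 4, and the difference was 2.94 ± 0.29 (limma adjusted p = 2.1e-04), or 7.67-fold. Its saline levels were 0.240 and 0.203 RPKM (geometric means). Cxcl9 lay at 1.68, 1.38, 1.21 and 1.51 RPKM in wild type against 7.45, 6.75, 9.22 and 6.25 RPKM in labelled libraries, again without overlap, and had the lowest adjusted p of all genes (2.8e-05, limma; difference 2.35 ± 0.13). Cxcl11, annotated as a polymorphic pseudogene in this strain's reference, differed most, by 3.85 ± 0.35, but from a low base of 0.0604 to 0.174 RPKM to 1.05 to 2.39 RPKM, and it passed the filter only through the labelled libraries. It overlaps Art3 on the opposite strand, and without strand information their reads cannot be told apart.

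Chemokines for monocytes and neutrophils were higher in the same libraries. Ccl2, the main attractant of inflammatory monocytes, lay at 2.44, 2.24, 3.16 and 3.32 RPKM in wild type against 16.9, 9.57, 16.3 and 11.5 RPKM in labelled Lcn2-/- libraries (difference 2.26 ± 0.19, limma adjusted p = 9.9e-05). The groups did not overlap, and within the labelled group replicates 1 and 3 were the highest. Its relatives Ccl7 and Ccl12, which act on the same receptor CCR2, showed 1.25, 1.18, 1.43 and 1.19 RPKM against 9.85, 4.70, 9.89 and 5.65 RPKM and 1.76, 1.85, 3.37 and 2.85 RPKM against 15.7, 6.88, 12.2 and 10.8 RPKM, wild type first. Both separated the labels, and both were again highest in labelled replicates 1 and 3. The neutrophil attractant Cxcl2 lay at 1.71, 2.42, 2.14 and 1.96 RPKM in wild type against 17.9, 6.79, 14.0 and 9.55 RPKM in labelled libraries, a 5.53-fold difference. Ccrl2, a receptor-like protein that binds chemerin and holds it at the surface of endothelial and myeloid cells, rose from 0.754 to 1.07 RPKM to 3.01 to 6.66 RPKM (2.27 ± 0.20, limma adjusted p = 1.4e-04). The homeostatic chemokine Cxcl12 was the one lower member (-0.32 ± 0.09, limma adjusted p = 0.026), a call lost without wild type replicate 1, 2 or 3 or labelled replicate 2 (limma adjusted p of 0.054 to 0.057). The neuronal chemokine Cx3cl1 did not pass, at 87.5 to 103 RPKM in wild type against 89.5 to 96.4 RPKM in labelled libraries.

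The promoters of 4 genes among the largest increases are printed to show matches to motifs that are known to bind NF-κB and interferon-activated factors. Each line gives the 250 bases before the annotated start in RefSeq (GRCm38.p6), 5′ to 3′ on the gene's strand, and capitals mark motif matches. The interferon-stimulated response element core was searched as GAAA, any 2 bases and GAAA and the NF-κB site by its common consensus, both on both strands. Cxcl10 (chr5:92348890-92349139, minus strand) has 1 interferon core, 213 to 204 bases before the start, and 2 NF-κB matches, at 159 to 150 and 103 to 94. Rsad2 (chr12:26456453-26456702, minus strand), an antiviral gene described with the interferon response, has 1 interferon core in reverse orientation, 120 to 111 bases before the start. Cxcl2 (chr5:90903649-90903898, plus strand) has a pair of overlapping NF-κB matches within 97 to 87 bases before the start. Ccrl2 (chr9:111057519-111057768, minus strand) has 1 NF-κB match, at 56 to 47.
Cxcl10: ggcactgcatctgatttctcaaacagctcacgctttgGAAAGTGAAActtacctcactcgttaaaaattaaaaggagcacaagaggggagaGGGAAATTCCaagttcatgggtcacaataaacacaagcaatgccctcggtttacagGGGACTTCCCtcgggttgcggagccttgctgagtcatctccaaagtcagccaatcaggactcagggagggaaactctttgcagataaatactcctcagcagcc
Rsad2: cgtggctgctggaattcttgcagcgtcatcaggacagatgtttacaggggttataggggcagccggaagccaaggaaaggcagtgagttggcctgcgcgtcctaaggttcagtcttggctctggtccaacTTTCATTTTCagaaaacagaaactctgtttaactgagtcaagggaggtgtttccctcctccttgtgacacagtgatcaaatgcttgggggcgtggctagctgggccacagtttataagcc
Cxcl2: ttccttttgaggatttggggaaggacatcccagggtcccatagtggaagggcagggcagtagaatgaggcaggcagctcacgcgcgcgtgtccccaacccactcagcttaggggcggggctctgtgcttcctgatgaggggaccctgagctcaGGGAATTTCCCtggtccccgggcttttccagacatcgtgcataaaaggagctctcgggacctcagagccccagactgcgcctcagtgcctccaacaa
Ccrl2: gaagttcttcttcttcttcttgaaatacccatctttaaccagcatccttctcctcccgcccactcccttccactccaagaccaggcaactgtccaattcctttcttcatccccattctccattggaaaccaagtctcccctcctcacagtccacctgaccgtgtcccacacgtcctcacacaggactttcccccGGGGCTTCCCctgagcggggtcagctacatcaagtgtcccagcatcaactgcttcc
Over all 32851 promoter windows in the RefSeq table, 2.98% held the interferon core and 3.90% the NF-κB consensus. Of the tested genes, 11332 matched a window by symbol, 368 with the interferon core (3.25%) and 646 with the NF-κB consensus (5.70%). Among the 95 matched genes called at least 2-fold higher, 28 (29.5%) had the interferon core and 17 (17.9%) the NF-κB consensus. Genes called higher by less than 2-fold had them in 4.28% and 6.81% of 1424 windows, and genes called lower in 2.76% and 5.64% of 1560. These are matches of letters and were not tested as binding sites.

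Among cytokines and growth factors, 7 of 9 tested genes were higher and none lower, with a median difference of 1.08. Of the 7, Il15 and Il1a passed the filter only through the labelled libraries and so had to differ. The list is 1 of 9 pathway lists, with 163 tested members in all, in which no member was called lower (limma). Of the 163, 2 were lower at an unadjusted p under 0.05 (limma), both in the unfolded protein list. Csf3, which encodes the granulocyte colony-stimulating factor that releases neutrophils from bone marrow, lay at 8.11, 8.32, 8.84 and 8.96 RPKM in wild type against 31.6, 23.4, 29.3 and 23.4 RPKM in labelled libraries. The spread within each label was small beside the 3.12-fold difference (1.64 ± 0.09, limma adjusted p = 3.0e-05). Il6, the cytokine that drives fever and the acute phase response, lay at 0.424, 0.396, 0.590 and 0.534 RPKM in wild type against 2.04, 1.58, 2.50 and 1.42 RPKM in labelled libraries, and the labels did not overlap. Smaller increases from similarly low levels were found for Il1a (1.09 ± 0.18) and for the death ligand gene Tnfsf10 (1.22 ± 0.18). Il18 did not pass, with 22.1 to 24.0 RPKM in wild type against 22.4 to 24.3 RPKM in labelled libraries. The other 12 of the 21 listed cytokines were below the filter in these 8 libraries, among them Tnf, Ifnb1 and Ifng with highest values of 0.305, 0.0222 and 0.203 RPKM. On the receptor side, 10 of 21 genes were higher and 2 lower. The oncostatin M receptor gene Osmr (0.64 ± 0.08), the interleukin-10 receptor gene Il10ra (0.54 ± 0.12) and Il4ra (0.50 ± 0.06) differed most.

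**Figure D2:**
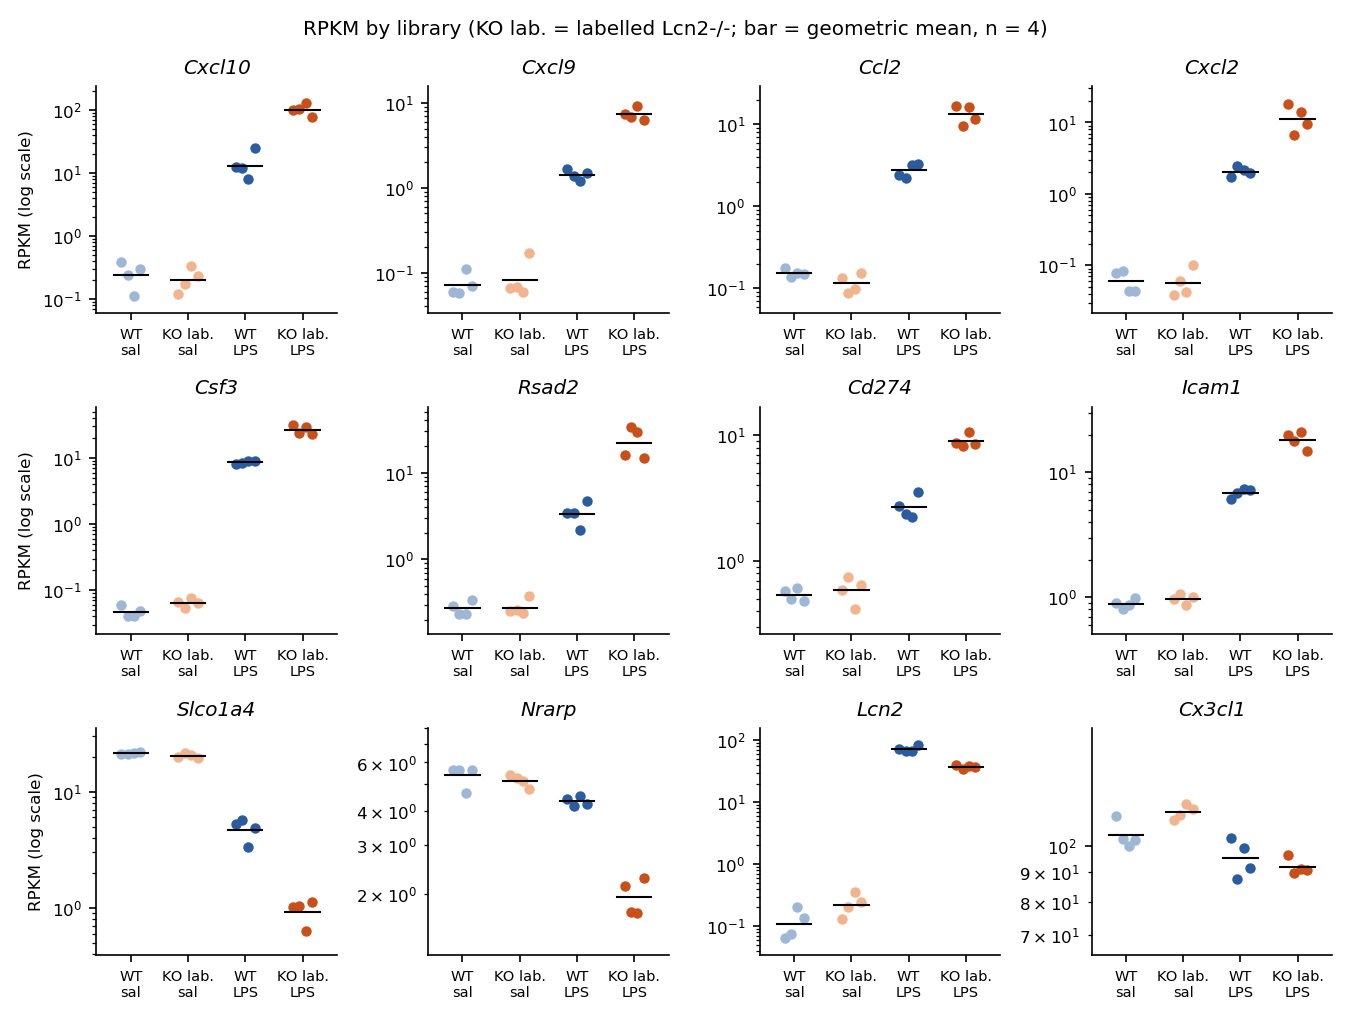
RPKM (vertical axis, log scale) of 12 genes in each of the 16 libraries, by genotype label and injection from left to right as named on the axis (4 points each, horizontal bars at the geometric mean). For the 8 genes in the upper rows the labelled LPS libraries lie above every wild type LPS library, for Slco1a4, Nrarp and Lcn2 below, and for Cx3cl1 the LPS groups overlap.

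Genes of the type I interferon response, which act against viruses, formed the group with the most members called: 27 of 29 were higher and none lower, with a median of 0.94 after LPS and 0.03 after saline. For 19 of them the difference after LPS was called above that after saline, where 4.18% of all genes were. Rsad2, which encodes viperin, an enzyme that makes a chain-terminating nucleotide, lay at 3.45, 3.46, 2.15 and 4.66 RPKM in wild type against 15.9, 33.4, 29.2 and 14.9 RPKM in labelled Lcn2-/- libraries (2.73 ± 0.29, limma adjusted p = 3.1e-04). Labelled replicates 2 and 3 were the highest, a different pair from that of the monocyte chemokines, and wild type replicate 3 was the lowest library of all. The dynamin-like GTPase genes Mx1 and Mx2 showed 1.09, 1.06, 0.633 and 1.73 RPKM against 4.63, 7.31, 6.77 and 4.45 RPKM and 0.887, 0.857, 0.801 and 1.26 RPKM against 3.75, 5.64, 5.62 and 3.70 RPKM, wild type first. Neither overlapped between labels. Oasl1, a regulator of interferon synthesis related to the 2'-5' oligoadenylate synthetases, went from 0.628 to 1.44 to 3.36 to 5.91 RPKM. In all 3, labelled replicates 2 and 3 exceeded replicates 1 and 4. Bst2, which tethers budding viruses to the cell surface, did not pass: its range of 20.1 to 28.6 RPKM in labelled libraries overlapped the wild type range of 19.1 to 22.0 RPKM. It passed without labelled replicate 2 (limma adjusted p = 0.0061).

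Genes of the interferon gamma response were higher without exception in the list: 13 of 13 tested, with a median of 1.11. Leaving out any 1 library left all 13 called. Cd274, which encodes the checkpoint ligand PD-L1, lay at 2.77, 2.37, 2.26 and 3.55 RPKM in wild type against 8.76, 8.22, 10.7 and 8.51 RPKM in labelled libraries, a 3.34-fold difference (1.74 ± 0.13, limma adjusted p = 8.3e-05). The transcription factor gene Irf1, an inducer of many of these genes, lay at 2.83, 2.46, 2.72 and 3.47 RPKM in wild type against 8.01, 6.05, 8.04 and 6.84 RPKM in labelled libraries, and Irgm1, one of the immunity-related GTPases that attack the vacuoles of intracellular pathogens, at 8.26, 7.20, 5.31 and 11.1 RPKM and 21.5, 19.4, 22.6 and 19.6 RPKM. None of these 3 overlapped between labels. Gbp4, a guanylate-binding protein gene that shares its annotation with Gbp9, differed by 0.82 ± 0.05 and lost its call when all 16 libraries shared the spread. Antigen presentation by MHC class I followed, with 19 of 20 genes higher, none lower, and a median of 0.45. Tap1, a subunit of the peptide transporter of the endoplasmic reticulum, lay at 2.24, 2.27, 1.83 and 3.23 RPKM in wild type against 6.34, 6.29, 6.59 and 6.05 RPKM in labelled libraries. The class I genes H2-Q4, H2-Q6 and H2-Q7 differed by 1.09 ± 0.12, 1.45 ± 0.17 and 1.42 ± 0.17; they are near-identical copies, and reads may have been split between them. The peptide-trimming enzyme gene Erap1 did not pass, at 1.99 to 2.42 RPKM in wild type against 1.89 to 2.32 RPKM in labelled libraries.

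Genes of LPS sensing and of feedback on its pathway were counted separately. In the NF-κB list, 13 of 18 genes were higher and none lower (median 0.64), and the members that differed most are inhibitors or late subunits of the pathway. Tnfaip3, which encodes the ubiquitin-editing enzyme A20, lay at 0.970, 1.11, 1.09 and 1.05 RPKM in wild type against 2.52, 2.57, 3.19 and 2.17 RPKM in labelled libraries (1.30 ± 0.11, limma adjusted p = 1.0e-04). Nfkbiz, which encodes a nuclear IκB protein needed for Il6 expression, lay at 2.28, 2.35, 2.36 and 2.67 RPKM and 5.22, 4.49, 5.26 and 4.70 RPKM. Both separated the labels by a wide margin, as did the subunit gene Relb (1.52 to 1.68 against 2.73 to 3.81 RPKM) and Birc3 (0.732 to 1.10 against 1.70 to 2.40 RPKM). Of 16 genes for LPS sensing and proximal signalling, 8 were higher and 1 lower. Cd14, the co-receptor of LPS, lay at 8.41, 8.66, 9.81 and 12.1 RPKM in wild type against 22.0, 25.1, 28.1 and 21.1 RPKM in labelled libraries, and Tlr2, the receptor for bacterial lipoproteins, at 2.07, 2.80, 2.79 and 3.88 RPKM and 6.91, 7.85, 9.43 and 6.18 RPKM. For both, every labelled library exceeded every wild type one. Tlr4 itself was below the filter, at 0.261 RPKM at most, and the kinase gene Tbk1 did not pass (0.09 ± 0.04). Among the 18 genes of cytokine signal transduction, 9 were higher and 5 lower, the latter number falling to 3 without labelled replicate 2. Of the higher genes, Stat5a passed the filter only through the labelled libraries. The feedback inhibitors Socs3 (5.68, 6.19, 6.33 and 7.05 RPKM in wild type, 12.7, 14.3, 15.5 and 11.8 RPKM in labelled libraries) and Socs1 (0.800 to 1.26 against 2.02 to 3.29 RPKM) rose most. The lower members included Socs4 (-0.33 ± 0.07), Stat5b (-0.22 ± 0.05) and Socs5 (-0.16 ± 0.03).

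**Figure D3:**
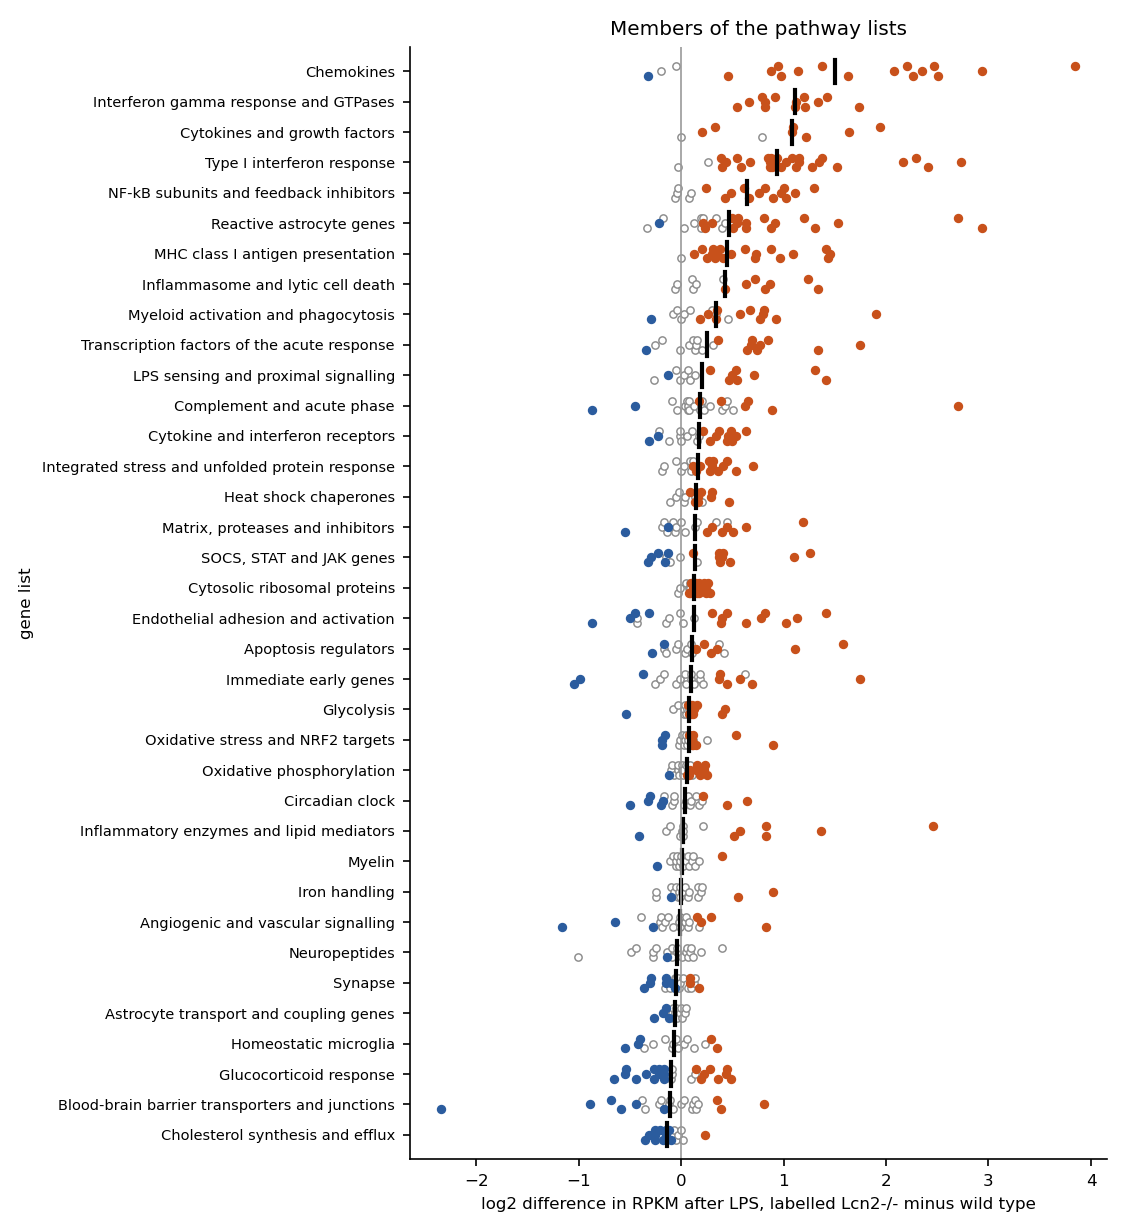
Log2 difference in RPKM after LPS, labelled Lcn2-/- minus wild type (horizontal axis), for the tested members of the 36 pathway lists (1 row a list, 1 point a gene; filled where called, in orange if higher and blue if lower, open where not, vertical tick at the list's median). The chemokine, cytokine and interferon lists lie to the right of 0, with medians of 0.94 to 1.50, while the glucocorticoid, barrier and cholesterol lists have medians below 0.

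Enzymes tied to inflammation were split. Acod1, which makes itaconate in activated myeloid cells, lay at 0.232, 0.271, 0.244 and 0.478 RPKM in wild type against 1.26, 1.35, 2.47 and 1.598 RPKM in labelled libraries (2.46 ± 0.27) and passed the filter only through the latter. Upp1, the uridine phosphorylase gene, lay at 1.87, 1.45, 1.47 and 1.89 RPKM and 4.58, 4.19, 4.23 and 4.13 RPKM, with little spread within either label. Ptges, the inducible enzyme of prostaglandin E2 synthesis, differed by 0.83 ± 0.09, while the brain's constitutive prostaglandin D synthase gene Ptgds lay at 395 RPKM in every wild type library and 389 to 395 RPKM in labelled libraries. In the list of inflammatory enzymes and lipid mediators as a whole, 6 of 15 were higher and 1 lower. Pde4b, a phosphodiesterase that lowers cyclic AMP in leukocytes, was named for its low p and lay at 10.2, 10.4, 10.3 and 11.3 RPKM in wild type against 19.7, 19.1, 21.8 and 18.1 RPKM in labelled libraries. Of 13 genes for inflammasomes and lytic death, 7 were higher. Casp4, the mouse caspase-11 gene whose product binds intracellular LPS, lay at 1.43, 1.27, 1.26 and 1.87 RPKM and 3.01, 3.93, 3.62 and 3.10 RPKM, and Mlkl, the pore-forming protein of necroptosis, at 0.930, 0.926, 0.597 and 1.02 RPKM and 1.93, 2.43, 2.35 and 1.95 RPKM, wild type first. Neither overlapped. Among oxidative stress genes, 8 of 22 were higher and 3 lower, where 12.6% and 13.8% of all genes were. The heme oxygenase gene Hmox1 (3.12 to 4.24 against 5.65 to 7.72 RPKM) and the cystine transporter gene Slc7a11 (3.36 to 4.27 against 5.19 to 5.99 RPKM) led. The higher count was 3 with the shared spread, and 5 without wild type replicate 1 or labelled replicate 3. Iron handling, the process lipocalin-2 is tied to, had 2 of 20 genes higher and 1 lower, with a median of 0.00, where 26.3% of all genes were called. The ferritin heavy chain gene Fth1 lay at 656 to 687 RPKM in wild type against 630.2 to 687 RPKM in labelled libraries, and the ferroportin gene Slc40a1 was below the filter.

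Acute phase and complement genes were called about as often as genes in general. Of 26 tested, 6 were higher and 2 lower, and without labelled replicate 2 the higher count was 11. Ptx3, a soluble pattern recognition protein, lay at 0.690, 0.342, 0.670 and 0.895 RPKM in wild type against 6.10, 2.47, 3.98 and 4.23 RPKM in labelled libraries (2.70 ± 0.31, limma adjusted p = 4.8e-04). Serpina3f, a protease inhibitor gene, differed by 0.89 ± 0.13 and the complement factor B gene Cfb by 0.63 ± 0.10. Saa3, the serum amyloid A gene of the highest level in the list, lay at 98.2, 108, 106 and 140.0 RPKM in wild type against 149, 82.2, 101 and 152 RPKM in labelled libraries: labelled replicates 1 and 4 were the highest and replicate 2 the lowest of all 8, and the labels overlapped (0.07 ± 0.19, limma adjusted p = 0.82). Lrg1, a leucine-rich glycoprotein of the acute phase and of vessels, was lower, at 10.3, 9.71, 7.26 and 9.34 RPKM in wild type against 4.52, 4.84, 4.40 and 6.36 RPKM in labelled libraries (-0.87 ± 0.13). Its difference after LPS was below that after saline (interaction -1.48, limma adjusted p = 0.029).

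The called genes of the activation lists of glia and myeloid cells were mostly higher. Of 28 reactive astrocyte genes, 17 were higher and 1 lower (median 0.47). Several are shared with lists above, among them Cxcl10, Ptx3, Cd14 and Osmr. Tgm1, a transglutaminase gene, lay at 0.362, 0.242, 0.386 and 0.544 RPKM in wild type against 1.73, 0.587, 0.972 and 1.299 RPKM in labelled libraries. Gfap, the filament gene of astrocytes, did not pass, at 98.0 to 116 RPKM in wild type against 109.7 to 139.5 RPKM in labelled libraries, and did without labelled replicate 2 (limma adjusted p = 0.036). Of 15 transport and coupling genes of astrocytes, 0 were higher, also at an unadjusted p under 0.05 (limma), and 4 were lower, where 13.8% of all genes were: the GABA transporter gene Slc6a11 (-0.27 ± 0.06) and the glutamine synthetase gene Glul (-0.11 ± 0.02) passed under every alternative. In the myeloid activation list, 11 of 20 were higher and 1 lower; 7 were higher without labelled replicate 3 and 6 with the shared spread. The co-stimulatory receptor gene Cd40 lay at 0.304, 0.332, 0.268 and 0.302 RPKM in wild type against 0.980, 1.32, 1.43 and 0.865 RPKM in labelled libraries. It passed the filter only through the labelled libraries and so had to differ. The fatty acid receptor gene Gpr84 differed by 0.93 ± 0.14. Of 16 genes of resting microglia, 2 were higher and 3 lower, where 12.6% and 13.8% of all genes were. Sall1, a transcription factor that keeps microglia in their resting identity, lay at 2.16, 1.82, 2.39 and 1.90 RPKM in wild type against 1.45, 1.44, 1.38 and 1.36 RPKM in labelled libraries.

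Genes of the blood-brain barrier are given next. Slco1a4, an organic anion transporter of the blood-brain barrier, lay at 5.29, 5.75, 3.35 and 4.86 RPKM in wild type against 1.03, 1.04, 0.629 and 1.12 RPKM in labelled Lcn2-/- libraries, a 5.06-fold lower level (-2.34 ± 0.20, limma adjusted p = 1.2e-04). Every labelled library lay below every wild type one, and after saline the levels were 21.4 and 20.4 RPKM (geometric means). Of 23 barrier transporters and junction genes, 6 were lower and 3 higher, where 13.8% and 12.6% of all genes were. Lsr, the tricellular junction receptor, which overlaps antisense transcripts, lay at 2.31, 1.99, 1.94 and 2.002 RPKM in wild type against 1.02, 1.03, 1.14 and 1.28 RPKM in labelled libraries, and Slco2b1, another anion transporter, at 2.41, 2.50, 2.50 and 2.13 RPKM and 1.54, 1.34, 1.34 and 1.75 RPKM. The tight junction gene Ocln (-0.59 ± 0.11) and the glucose transporter gene Slc2a1 (-0.44 ± 0.06) were lower too. In the opposite direction, Cdh5, the cadherin of endothelial junctions, lay at 5.08, 5.11, 5.95 and 5.27 RPKM in wild type against 8.58, 10.3, 9.88 and 8.86 RPKM in labelled libraries. The junction gene F11r rose by 0.39 ± 0.08. Cldn5, the main claudin of the barrier, did not pass, at 26.2 to 32.3 RPKM in wild type against 24.5 to 35.8 RPKM in labelled libraries.

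Adhesion genes of activated endothelium were called in both directions. Of 21 tested, 10 were higher and 4 lower, where 12.6% and 13.8% of all genes were. Icam1, the ligand of leukocyte integrins, lay at 6.10, 6.84, 7.35 and 7.16 RPKM in wild type against 19.8, 17.8, 21.2 and 14.9 RPKM in labelled libraries (1.41 ± 0.10, limma adjusted p = 5.7e-05). Selp, the selectin that lets leukocytes roll on the vessel wall, lay at 0.661, 0.633, 0.816 and 0.781 RPKM and 1.78, 1.43, 1.90 and 1.26 RPKM, and Sphk1, which makes sphingosine 1-phosphate, at 1.47, 1.48, 1.34 and 1.65 RPKM and 3.03, 3.00, 3.06 and 2.94 RPKM. All 3 separated the labels. Robo4, an endothelial guidance receptor that steadies vessels, was named for its low p and lay at 3.30, 3.27, 3.67 and 3.13 RPKM in wild type against 7.26, 8.79, 9.12 and 7.28 RPKM in labelled libraries. Pecam1, the platelet endothelial adhesion molecule, was lower, at 2.82, 2.91, 3.33 and 3.23 RPKM and 2.29, 1.99, 1.98 and 2.49 RPKM, and so was Icam2 (-0.45 ± 0.12). Endothelial genes therefore did not move one way: among 11 endothelial markers, 2 were higher and 3 lower, Cdh5 and Erg among the former and Slco1a4, Ly6c1 and Pecam1 the latter. Erg did not pass with the shared spread (limma adjusted p = 0.065). Their summed level lay at 69.1 to 75.7 RPKM in wild type against 62.6 to 73.3 RPKM in labelled libraries.

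Other decreases are given by gene. Nrarp, a Notch target that feeds back on the pathway, lay at 4.44, 4.15, 4.52 and 4.25 RPKM in wild type against 2.14, 1.71, 1.69 and 2.27 RPKM in labelled libraries (-1.16 ± 0.10, limma adjusted p = 9.9e-05). Hes5, a transcriptional repressor induced by Notch, lay at 2.68, 2.46, 1.93 and 2.29 RPKM and 1.31, 1.204, 0.917 and 1.37 RPKM. Neither overlapped between labels; both genes overlap an annotated transcript on the opposite strand, so their reads may be shared. Sema3g, a semaphorin gene of arterial endothelium, lay at 1.04, 1.07, 1.296 and 1.07 RPKM in wild type against 0.402, 0.416, 0.412 and 0.531 RPKM in labelled libraries, and the endothelial transcription factor gene Sox18 at 1.32, 1.11, 1.01 and 1.001 RPKM and 0.653, 0.401, 0.370 and 0.620 RPKM. Its relative Sox7 went the other way (0.355 to 0.753 against 0.785 to 1.10 RPKM, 0.83 ± 0.21). Bmp4, a growth factor gene, was lower (-0.97 ± 0.15), and so was Srarp, a steroid receptor regulator (-1.91 ± 0.29; 3.23, 3.30, 1.996 and 2.87 RPKM in wild type against 1.29, 0.539, 0.488 and 0.904 RPKM in labelled libraries). The Wnt target Apcdd1, an inhibitor of the pathway, lay at 5.72 to 7.38 RPKM in wild type against 3.76 to 4.39 RPKM in labelled libraries. In the list of angiogenic and vascular signalling genes as a whole, 4 of 22 were higher and 3 lower, where 12.6% and 13.8% of all genes were. The higher count was 2 without wild type replicate 1 or 4, or without labelled replicate 2 or 3.

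**Figure D4:**
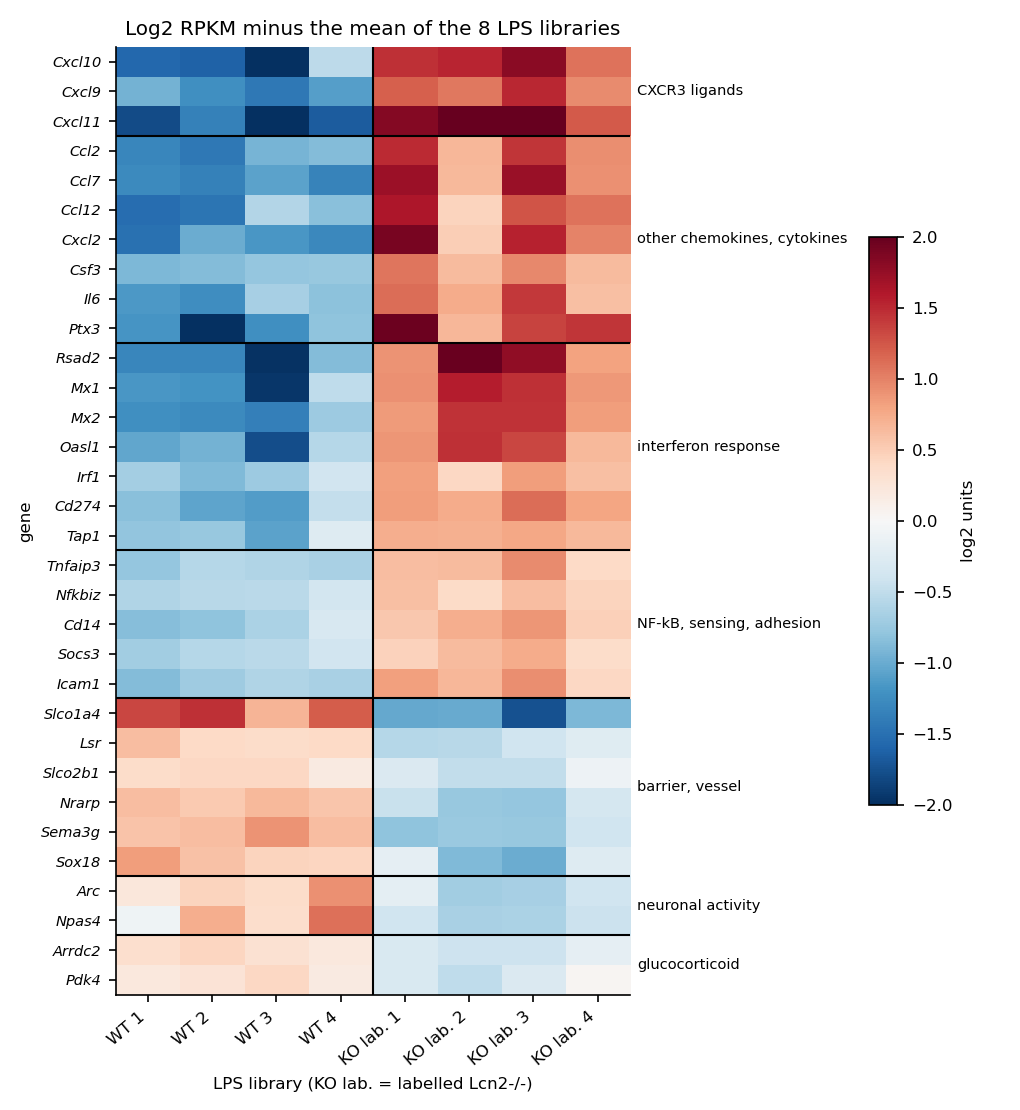
Log2 RPKM of 32 genes in each of the 8 LPS libraries, minus the gene's mean over the 8 (colour scale in log2 units, from -2 to 2; rows are genes in groups, columns are libraries). The 4 wild type columns are below the mean in the upper 4 groups. In the lower 3 they are above it, apart from Npas4 in wild type replicate 1, which is just below. Within the labelled Lcn2-/- columns replicates 1 and 3 lead the monocyte chemokines while replicates 2 and 3 lead Rsad2, Mx1 and Oasl1.

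Genes of cell survival were called in both directions. Of 18 apoptosis regulators, 6 were higher and 2 lower, where 12.6% and 13.8% of all genes were. Bcl2a1b, a prosurvival relative of BCL2, lay at 0.425, 0.407, 0.380 and 0.534 RPKM in wild type against 1.05, 1.29, 1.45 and 1.45 RPKM in labelled libraries; it belongs to a family of near-identical copies, so its reads are uncertain. The caspase inhibitor gene Cflar rose (2.32 to 2.40 against 2.85 to 3.19 RPKM). Of 20 transcription factor genes of the acute response, 9 were higher and 1 lower. Cebpb, a factor of acute phase and myeloid genes, lay at 6.66, 6.21, 7.84 and 7.90 RPKM in wild type against 11.8, 12.3, 13.4 and 11.1 RPKM in labelled libraries, without overlap. Calhm6, a channel gene of activated macrophages and among the 12 largest increases, lay at 0.733, 0.300, 0.521 and 0.665 RPKM and 3.06, 2.56, 3.97 and 2.28 RPKM. In the oligodendrocyte lineage, 1 of 18 myelin genes was higher and 1 lower, below these shares of all genes. Gpr17, a receptor of precursors that are about to mature, lay at 2.40, 2.23, 3.68 and 1.81 RPKM in wild type against 1.44, 1.24, 1.199 and 1.47 RPKM in labelled libraries (-0.88 ± 0.18, limma adjusted p = 0.0077).

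Genes induced by glucocorticoids, the stress hormones that rise after LPS, split by direction. Of 25 tested, 12 were lower and 8 higher, where 13.8% and 12.6% of all genes were. For 11 the difference after LPS was below that after saline, where 5.18% of all genes were, with none above. The list's median was -0.10 after LPS and 0.21 after saline. Arrdc2, an arrestin-domain gene, lay at 16.9, 17.99, 16.5 and 15.4 RPKM in wild type against 10.8, 9.98, 10.01 and 11.8 RPKM in labelled libraries (-0.65 ± 0.06, limma adjusted p = 1.8e-04). Pdk4, the kinase that limits pyruvate use, lay at 4.12, 4.33, 4.75 and 4.06 RPKM and 2.88, 2.52, 2.91 and 3.67 RPKM, and the sulfotransferase gene Sult1a1 differed by -0.54 ± 0.09. Among the higher members was Nfkbia, the IκBα gene, which NF-κB also induces. Whether NF-κB raised Nfkbia here was not tested. Wild type libraries had 32.5, 33.5, 29.4 and 30.8 RPKM of its transcript, and labelled libraries had 45.4, 41.6, 51.0 and 39.8 RPKM. Per1 and Gadd45g were higher by 0.45 ± 0.10 and 0.44 ± 0.09. With all 16 libraries sharing the spread, 7 were lower and 4 higher. Among 20 clock genes 3 were higher and 5 lower, where 12.6% and 13.8% of all genes were. Per2, a repressor of the clock, lay at 3.86, 3.46, 3.95 and 3.64 RPKM in wild type against 2.96, 2.15, 2.31 and 3.27 RPKM in labelled libraries, a difference below that after saline (interaction -1.10, limma adjusted p = 0.0034). Nfil3, a repressor of clock output, rose (3.49 to 4.32 against 5.57 to 6.91 RPKM).

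The immediate early genes Arc and Npas4 of neurons were lower, while Atf3 and other early genes of cell stress were higher. In the list of 23 immediate early genes, 6 were higher and 3 lower, where 12.6% and 13.8% of all genes were. The other 14 were not called, 15 of the 23 estimates lay above 0, and the median was 0.10. Arc, which encodes a synaptic protein made on neuronal firing, lay at 8.41, 9.75, 9.25 and 13.5 RPKM in wild type against 6.23, 4.42, 4.50 and 5.41 RPKM in labelled libraries (-0.98 ± 0.15, limma adjusted p = 0.0018). Npas4, a transcription factor gene induced by calcium entry in neurons, lay at 1.21, 2.10, 1.62 and 2.73 RPKM and 0.969, 0.816, 0.817 and 0.949 RPKM. For both, no labelled library reached the lowest wild type one. Atf3, an early gene of cell stress and of macrophages, lay at 0.751, 0.668, 0.671 and 0.746 RPKM in wild type against 2.34, 2.17, 3.10 and 1.996 RPKM in labelled libraries, a 3.35-fold difference, and Maff and Gadd45b differed by 0.69 ± 0.09 and 0.57 ± 0.08. Among 25 synaptic genes, 3 were higher and 7 lower, all by small amounts, where 12.6% and 13.8% of all genes were called. The scaffold genes Shank1 (24.2, 24.6, 22.4 and 22.3 RPKM in wild type, 20.8, 17.5, 17.4 and 17.3 RPKM in labelled libraries) and Shank3 (-0.29 ± 0.06) were the largest that passed under every alternative. The lower count was 4 without wild type replicate 1, labelled replicate 2 or labelled replicate 3, and 3 with the shared spread. Of 21 neuropeptide genes, 0 were higher and 1 lower (limma; 1 and 4 at an unadjusted p under 0.05).

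The called genes of the unfolded protein response and of the ribosome were higher, most by small amounts. Hspa5, which encodes the chaperone BiP, lay at 37.6, 40.2, 46.5 and 43.4 RPKM in wild type against 66.3, 66.1, 71.8 and 67.5 RPKM in labelled libraries (0.70 ± 0.06, limma adjusted p = 9.9e-05). The labels did not overlap. Of 20 genes of the stress and unfolded protein responses, 12 were higher and none lower, where 12.6% and 13.8% of all genes were. Manf, a secreted protein of the same response, differed by 0.41 ± 0.05 and Ppp1r15a, which restarts translation, by 0.45 ± 0.07. The count was 7 without wild type replicate 2, wild type replicate 4 or labelled replicate 3. Of 25 ribosomal protein genes, 18 were higher and none lower, with a median of 0.12 and a largest difference of 0.28 ± 0.04 for Rps4x. Heat shock chaperones had 8 of 16 higher, led by the co-chaperone gene Bag3 (0.47 ± 0.08). Oxidative phosphorylation had 9 of 25 higher and 1 lower, and glycolysis 11 of 20 higher and 1 lower, led by the regulatory enzyme genes Pfkfb3 (7.69 to 8.26 against 10.4 to 11.2 RPKM) and Hk2 (0.40 ± 0.09). With the shared spread these 4 counts of higher genes were 9, 2, 5 and 3, in the order given, and the glycolysis count was 7 without wild type replicate 2 or 3 and 6 without labelled replicate 3. Cholesterol genes leaned down, with 11 of 20 lower and 1 higher. The synthesis gene Idi1 lay at 11.3, 11.7, 11.6 and 11.3 RPKM in wild type against 10.1, 8.42, 8.38 and 10.2 RPKM in labelled libraries, while the efflux pump gene Abca1 rose by 0.24 ± 0.05. The lower count was 4 without wild type replicate 1, wild type replicate 2 or labelled replicate 3, 5 without wild type replicate 4 and 6 without labelled replicate 2.

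Markers of other cell types and of brain regions were compared in the same libraries. None of 12 neuronal, 9 pericyte and muscle, 7 cortical, 7 hippocampal or 9 thalamic and hypothalamic markers was called by limma, against 26.3% of all genes. These 5 lists are put together because no member was called, so the contrast is a description. Of their 44 markers, 3 were higher and 2 lower at an unadjusted p under 0.05 (limma). Other lists had calls, beside 12.6% higher and 13.8% lower of all genes. Of 8 striatal markers, 1 was higher and 2 lower. For 4 of the 8 the difference after LPS was below that after saline, where 5.18% of all genes were. Of 10 choroid plexus and ependyma markers, 2 were higher and 1 lower, and of 7 fibroblast and meningeal markers 2 were lower. Of the microglial markers, 1 of 10 was higher and 2 lower, and their summed level was 55.3 to 62.6 RPKM in wild type against 53.8 to 59.4 RPKM in labelled libraries. Blood cells were at low levels after perfusion. Of 13 neutrophil markers 5 passed the filter, and 1 was higher, the granule gene Ngp (0.624, 0.752, 0.908 and 0.942 RPKM in wild type against 1.09, 2.30, 2.82 and 1.38 RPKM in labelled libraries; limma adjusted p = 0.16 with the shared spread). The neutrophil list summed to 12.3 to 18.8 RPKM in wild type against 12.5 to 29.8 RPKM in labelled libraries, with Ly6g, Mpo and Elane at 0.115 RPKM or less. Of 5 erythroid and platelet markers tested, 2 were higher and none lower, and 1 was higher with the shared spread. Hba-a1 lay at 0.418, 0.626, 1.03 and 0.645 RPKM in wild type against 1.21, 1.29, 1.197 and 1.37 RPKM in labelled libraries, and the erythroid list summed to 4.59 to 6.07 RPKM against 6.496 to 9.75 RPKM. The part that blood cells play in the chemokine and interferon genes was not tested. Of 6 monocyte and macrophage markers, 2 were higher and 2 lower. Of the lower, F13a1 passed the filter only through the wild type libraries.

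Among regions, 4 of 8 cerebellar markers were higher, Pcp2 of Purkinje cells most (22.5, 25.3, 24.6 and 24.2 RPKM in wild type against 29.4, 30.7, 32.0 and 28.8 RPKM in labelled libraries), and the list summed to 276 to 309 RPKM against 304 to 335 RPKM. Of 6 markers of the olfactory bulb and neurogenic zone, 2 were lower, Sp8 (0.538, 0.301, 0.711 and 0.533 RPKM in wild type against 0.175, 0.231, 0.266 and 0.244 RPKM in labelled libraries) and Cdhr1 (0.943 to 2.16 against 0.814 to 1.09 RPKM), the latter not passing without wild type replicate 1, 3 or 4 or labelled replicate 1 or 3 (limma adjusted p of 0.06 to 0.071). The largest estimated decrease of any gene, named here after its values were seen because its labels overlap, was in S100a5, a calcium-binding protein gene of olfactory sensory neurons. Its levels were 1.39, 0.0181, 1.596 and 0.996 RPKM in wild type against 0.0294, 0.0139, 0.0266 and 0.0163 RPKM in labelled libraries, so that wild type replicate 2 was as low as the labelled libraries. It passed the filter only through wild type libraries, and its call was lost without wild type replicate 1, 3 or 4 or labelled replicate 2, 3 or 4 (0.057 to 0.099). After saline it ranged from 0.0865, 0.203, 0.294 and 0.385 RPKM in wild type to 0.0473, 7.42, 0.170 and 4.62 RPKM in labelled libraries, high in 2 of the latter. S100a5 and Cdhr1 moved with single libraries in this way. Sp8 kept its call under every alternative that tested it, though it passed the filter only through the wild type libraries. None of the 6 listed bulb markers had an estimate above 0, and their median was -0.33 after LPS and 0.25 after saline. For 3 of the 6 the difference after LPS was below that after saline (2 without labelled saline replicate 4), where 5.18% of all genes were. The share of bulb and cerebellum in each hemi-brain was not measured, and its part in the other results was not tested.

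Genes next to Lcn2 on chromosome 2 were examined because the targeted gene lies there. Within 10 Mb, 79 of 290 tested genes were called after LPS (27.2%), against 24.3% on the rest of the chromosome and 26.4% on other chromosomes. Of the 3 genes called after saline, 2 lay in this window. Cercam, a glycosyltransferase-like gene, lay at 2.45, 2.51, 2.48 and 2.55 RPKM in wild type against 1.17, 1.204, 0.989 and 1.001 RPKM in labelled libraries after saline, and at 2.24, 2.44, 2.10 and 2.32 RPKM and 0.932, 1.06, 1.16 and 0.915 RPKM after LPS. Its difference was -1.20 after saline and -1.16 after LPS, with no overlap at either (limma adjusted p = 0.0026 and 8.3e-05). Trub2, a pseudouridine synthase gene, was higher in labelled libraries by 0.72 after saline and 0.72 after LPS, at 2.99, 3.25, 2.92 and 3.16 RPKM in wild type against 5.12, 5.05, 4.94 and 5.20 RPKM in labelled libraries after LPS. These 2 genes thus followed the genotype label with and without LPS: their interaction estimates were 0.04 and 0.00 (limma adjusted p = 0.87 and 0.98). Both overlap a transcript on the opposite strand, with which their reads may be shared. Ptges, Hspa5 and Nrarp, described above, also lie in this window, 1.46, 2.38 and 7.2 Mb from Lcn2. Their differences after saline were -0.09, 0.05 and -0.06, and none passed (limma adjusted p = 0.81, 0.75 and 0.81).

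**Figure D5:**
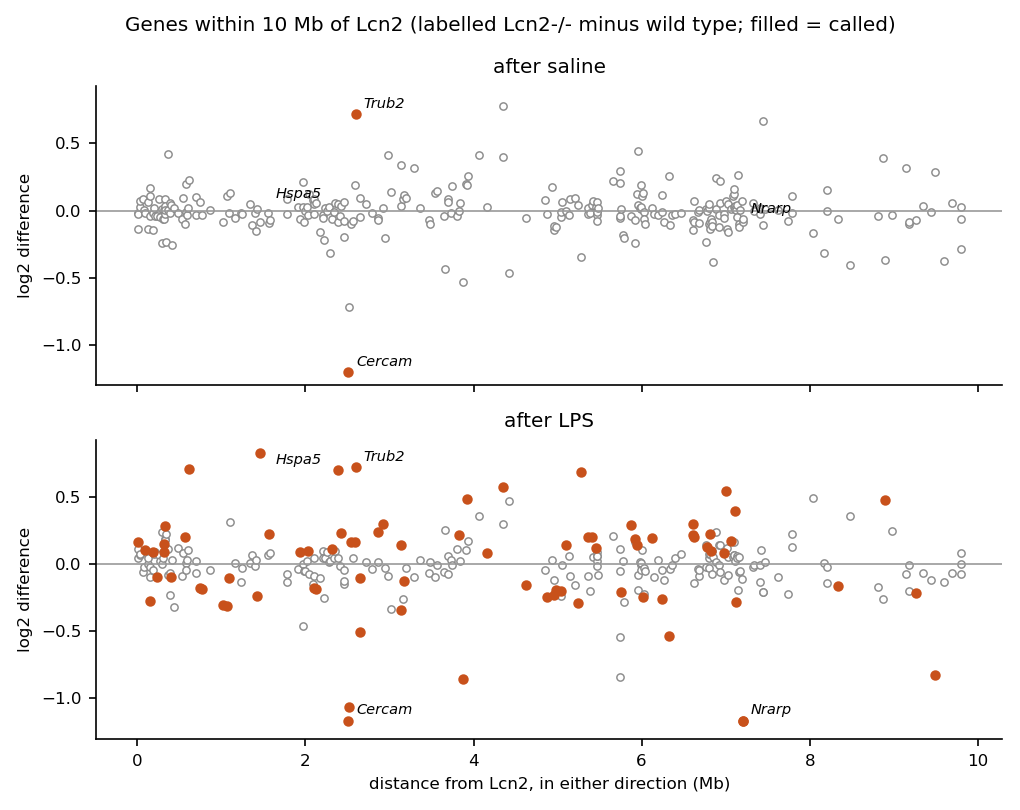
Log2 difference in RPKM, labelled Lcn2-/- minus wild type (vertical axis), of the 290 tested genes within 10 Mb of Lcn2 against their distance from Lcn2 in Mb, in either direction (horizontal axis), after saline (upper panel) and after LPS (lower panel), with called genes filled. Cercam and Trub2, the 2 genes called after saline in this window, lie at -1.20 and 0.72 after saline and -1.16 and 0.72 after LPS.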

How the data were processed

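RNA-seq of hemi-brain total RNA from 16 mice gave 1 deposited table. Its values are log2 RPKM made by the authors with conditional quantile normalization, per the file name; the build is mm10, per the submitters' processing notes. The aligner, counter, annotation, strandedness and depth are not given in sources used here. Groups came from the labels, replicates were numbered in accession order within a group, and numbers pair no samples. The design text speaks of 3 to 4 replicates, and 4 are in each group. Nothing in the labels says more of how the samples relate, so p-values measure only the spread between these samples.

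Genes with log2 RPKM of at least -1 in at least 3 of the 8 LPS libraries (16742) were fitted with limma 3.58.1 in R 4.3.3 on the deposited log2 values, with a trend in the empirical Bayes step, two-sided, and Benjamini-Hochberg adjustment over all of them. Calls were made at an adjusted p under 0.05. The 8 saline libraries were fitted in the same way over the same genes, and the difference of differences in all 16. Fold differences are those of geometric means on the RPKM scale. On simulated data with 16742 genes for the LPS comparison, the fit recovered 76.1% of 67 genes changed by 0.5 log2 units, 95.5% of 67 changed by 1 and 100% of 66 changed by 2, with 4.23% of calls false. Alternatives changed the filter, pseudocount, samples sharing the spread, trend, normalization, GC and length trends, or left out each library.

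Gene identifiers were matched to GENCODE mouse release 21 for symbols, positions and overlaps: 32695 of 33289 matched (98.2%), 594 did not and 17 shared a symbol. The members and the 36 pathway and 20 marker lists were chosen with earlier results of these data known, so lists are given as counts and medians, with no set test. Named were Lcn2 and Slc22a17; the 12 largest non-overlapping called increases and decreases with a mean log2 RPKM of at least 0 in the higher group, without predicted or unnamed genes; the 6 lowest p-values; up to 4 called members a list and direction and its most abundant uncalled member; and up to 8 called genes within 10 Mb of Lcn2. List members that added nothing were left out. S100a5, Art3, Gbp9, Mgp, Ifi204, Slfn4, Zkscan16, Zfp866 and Zfp626 are named outside this rule, after their values were seen. Besides those given in the results, Art3 (with Cxcl10 and Cxcl11), Zfp866, Cebpb, Cfb, Erap1, Gpr17, Il1a, Manf, Pcp2, Selp, Slc2a1, Slco2b1, Sult1a1 and Bcl2a1b overlap another annotated gene, so their reads may be shared. Promoters are from RefSeq (GRCm38.p6) and were searched for 2 motifs on both strands.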

Additional observations from a re-analysis of the deposited data

Results flagged for a closer look

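For 97 of the 138 genes named here, the log2 genotype difference after LPS itself differed from that after saline (limma over all 16 libraries, adjusted p under 0.05). The values below are the first minus the second, on the log2 scale. Over all genes tested, 1568 of 16742 (9.37%) passed the same test. Most of the 138 were named for their difference after LPS, which is part of this measure. Their higher share follows from that choice and is given as a description. Among chemokines, cytokines and related receptors, the difference after LPS lay above that after saline for Cxcl11 by 3.90, Cxcl10 by 3.18, Ccl2 by 2.68, Cxcl2 by 2.55, Ccl7 by 2.43, Ccrl2 by 2.18, Cxcl9 by 2.16, Il1a by 1.36, Tnfsf10 by 1.19, Csf3 by 1.18, Il4ra by 0.68 and Il10ra by 0.59, and below it for Cxcl12 by -0.40. Among interferon-induced and antigen presentation genes, the difference after LPS lay above that after saline for Rsad2 by 2.70, Mx2 by 2.48, Mx1 by 2.26, Oasl1 by 2.14, Cd274 by 1.62, Irf1 by 1.56, Irgm1 by 1.40, Slfn4 by 1.37, Gbp9 by 1.36, Tap1 by 1.26, Ifi204 by 1.22 and Slfn2 by 0.97. For Art3 it lay above by 2.17, but Art3 overlaps the more abundant Cxcl10 on the opposite strand, and their reads may be shared. Among genes of sensing, feedback, cell death and myeloid activation, the difference after LPS lay above that after saline for Calhm6 by 2.68, Acod1 by 2.004, Atf3 by 1.99, Cd40 by 1.87, Bcl2a1b by 1.59, Tlr2 by 1.52, Casp4 by 1.30, Tnfaip3 by 1.25, Birc3 by 1.05, Socs3 by 1.03, Relb by 0.95, Pde4b by 0.91, Nfkbiz by 0.88 and Cd14 by 0.85, and below it for Socs5 by -0.19. In vessels and the barrier, the difference after LPS lay above that after saline for Icam1 by 1.28, Robo4 by 1.23, Sphk1 by 1.06, Cdh5 by 0.78 and F11r by 0.43, and below it for Slco1a4 by -2.27, Srarp by -1.91, Sema3g by -1.50, Sox18 by -1.37, Nrarp by -1.10, Ly6c1 by -0.99, Mgp by -0.91, Bmp4 by -0.85, Lsr by -0.79, Ocln by -0.72, Slco2b1 by -0.68, Apcdd1 by -0.65, Slc2a1 by -0.63, Icam2 by -0.59 and Pecam1 by -0.46. Among astrocyte, acute phase and microglial genes, the difference after LPS lay above that after saline for Ptx3 by 2.23, Tgm1 by 1.72 and Gfap by 0.41, and below it for Lcn2 by -1.97, Lrg1 by -1.48, Sall1 by -0.56 and Glul by -0.19. For Lcn2 the saline levels that enter this value were all under 0.5 RPKM. Among metabolic, stress and clock genes, the difference after LPS lay above that after saline for Upp1 by 1.26, Hmox1 by 0.96, Ptges by 0.91, Nfil3 by 0.79, Slc7a11 by 0.66, Hspa5 by 0.65, Bag3 by 0.61, Gadd45b by 0.58, Ppp1r15a by 0.53, Hk2 by 0.52, Maff by 0.51, Manf by 0.46, Rps4x by 0.38, Pfkfb3 by 0.34 and Abca1 by 0.29, and below it for Per2 by -1.10, Arrdc2 by -0.94, Sult1a1 by -0.75 and Pdk4 by -0.56. In neurons, precursors, brain regions and zinc finger genes, the difference after LPS lay above that after saline for Pcp2 by 0.39, and below it for Cdhr1 by -1.45, Sp8 by -1.36, Arc by -1.15, Gpr17 by -1.06, Hes5 by -0.96, Zfp866 by -0.94, Zfp626 by -0.88, Shank1 by -0.45 and Shank3 by -0.31.

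Single libraries stood apart in 15 of 276 groups of 4 LPS libraries checked, by the gap to the next library as a share of the group's range; chance gives about 1 in 20 groups. In the wild type group a library was far above the others for Art3 (replicate 4, 2.27 RPKM) and Sema3g (replicate 3, 1.30 RPKM). In the wild type group a library was far below the others for Cdhr1 (replicate 2, 0.943 RPKM), Nfil3 (replicate 2, 3.49 RPKM), S100a5 (replicate 2, 0.0181 RPKM), Serpina3f (replicate 3, 3.02 RPKM), Slc2a1 (replicate 4, 33.5 RPKM), Tbk1 (replicate 1, 10.3 RPKM) and Tnfsf10 (replicate 3, 0.390 RPKM). In the labelled Lcn2-/- group a library was far below the others for Ocln (replicate 4, 0.860 RPKM) and Slco1a4 (replicate 3, 0.629 RPKM). Ptgds (replicate 3, 389 RPKM) was flagged as low too, but its range was narrow, and the measure ignores the size of the range. In the labelled Lcn2-/- group a library was far above the others for Sema3g (replicate 4, 0.531 RPKM), Shank1 (replicate 1, 20.8 RPKM) and Shank3 (replicate 1, 12.2 RPKM). Of these genes, Tbk1 and Ptgds did not differ by label at the threshold, while Cdhr1 and S100a5 lost their call when single libraries were left out.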

How the results depend on the processing

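The counts of genes called after LPS moved by no more than 1.5 times under 17 alternatives apart from those given here. With all 16 libraries sharing the spread they were 1224 higher and 1479 lower; leaving out 1 library in turn gave 1364 to 2012 higher and 1449 to 2255 lower. Genes at least 2-fold higher (146) and lower (36) numbered 303 and 105 with no filter, 66 and 5 on log2(RPKM + 0.5), 46 and 2 on log2(RPKM + 1), and 13 lower with the stricter filter. Alternatives for the other fits were chosen after seeing the data. There, saline calls (2 higher, 1 lower) were 6 and 2 with all 16 libraries sharing the spread, and 2 to 4 and 1 to 2 with 1 library left out. The difference between injections (700 above, 868 below) gave 418 and 487 with no filter, and 377 to 1066 and 404 to 1216 with 1 library left out. Of 127 called genes named, 121 passed under every alternative that tested them and 6 did not. Of these 6, 3 were lost only with all 16 libraries sharing the spread, and no called gene changed sign. The stricter filter left Cd40, Icam2, Il10ra, Il1a, S100a5, Sox7, Sp8, Tgm1, Tnfsf10 and Zfp626 untested. Most genes were named for their difference in the main fit, so a high share that passed follows in part from that choice. Of 11 uncalled genes, 5 changed sign around 0, all uncalled again, and the cause was not tested: after trends with GC content and length were removed Slc22a17 was at 0.0013, with quantile normalization Erap1 was at -0.0019, and with 1 library left out the ranges were Erap1 (-0.042 to 0.065), Fth1 (-0.030 to 0.011), Il18 (-0.019 to 0.023), Saa3 (-0.059 to 0.24) and Slc22a17 (-0.022 to 0.021). No paired analysis was possible because the labels give no replicate numbers that groups share. Depth is unknown, so the counting error of low values cannot be stated.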

Other observations

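Zinc finger genes, the large family of DNA-binding proteins of which many silence mobile elements, were lower in the labelled Lcn2-/- libraries more often than higher. The family was picked by symbol (Zfp, Zkscan and Zscan) after its values were seen, so its counts are a description. Of 349 tested, 96 were called lower (27.5%) and 18 higher (5.16%) by limma, beside 13.8% and 12.6% of all genes. Their median difference was -0.14 on the log2 scale after LPS and 0.00 after saline, where the median over all genes after LPS was -0.01. For 37 of them the difference after LPS was below that after saline and for 3 above (52 and 6 without labelled saline replicate 4). Most were small, and 21 of the 96 were at least 1.5-fold. Zkscan16 lay at 3.16, 2.64, 2.60 and 2.92 RPKM in wild type against 1.53, 1.16, 1.32 and 2.12 RPKM in labelled libraries (-0.92 ± 0.16). Zfp866 lay at 2.53, 2.39, 2.62 and 2.34 RPKM and 1.63, 1.22, 1.11 and 1.64 RPKM (-0.84 ± 0.13), and Zfp626 at 0.854, 1.01, 0.937 and 0.917 RPKM and 0.447, 0.297, 0.474 and 0.313 RPKM (-1.31 ± 0.18). In all 3 the labels did not overlap. Zfp626 and 7 others of the 349 passed the filter only through the wild type libraries, and 7 of these 8 were called. After trends with GC content and length were removed, 89 were lower and 18 higher, and the counts were 60 and 10 without labelled replicate 2 and 63 and 7 without labelled replicate 3. Many of these genes resemble each other closely, and reads may have been split between them.

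Both of 2 interferon-induced families that the lists hardly cover (only Slfn2 is in one), also picked by symbol after their values were seen, were also higher. The 8 tested genes of the Ifi200 family, nuclear proteins that bind DNA, were called higher, with a median of 1.32 after LPS and 0.01 after saline, and the 6 tested Schlafen genes, with a median of 0.97 and 0.01. Of these, 5 and 2 passed the filter only through the labelled libraries and so had to differ; under the stricter filter 3 and 4 were tested. The medians were 0.71 and 0.64 on log2(RPKM + 0.5), and 0.47 and 0.56 on log2(RPKM + 1). With all 16 libraries sharing the spread, 8 and 5 were called. Ifi204 lay at 1.200, 1.23, 0.749 and 1.42 RPKM in wild type against 3.14, 3.61, 3.61 and 3.25 RPKM in labelled libraries (1.60 ± 0.17), and Slfn4 at 2.06, 1.75, 1.76 and 1.91 RPKM and 3.56, 3.16, 4.96 and 3.90 RPKM (1.04 ± 0.12). Neither overlapped between labels. Among abundant genes outside the lists, Mgp, which encodes a matrix protein of vessel walls that inhibits calcification, was lower, at 69.9, 66.2, 66.2 and 68.8 RPKM in wild type against 40.2, 34.7, 31.0 and 42.0 RPKM in labelled libraries (-0.88 ± 0.08, limma adjusted p = 1.5e-04), with a difference of 0.03 after saline.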
